A study of Mus musculus with 4 samples.

Results

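Axon guidance ligands and receptors are the secreted and membrane proteins by which a growing axon or a migrating neuron reads its surroundings. They were taken from the gene list of 4 single-cell libraries of embryonic mouse neocortex by symbol: semaphorins, plexins, neuropilins, ephrins, Eph receptors, Slits, Robos, netrins, netrin-G ligands, Dcc and the Unc5 receptors, and the Flrt proteins. This gave 74 genes of the 32285 listed, in 14 families, and no measured value was used to choose them. All 74 matched a gene of GENCODE M21 on GRCm38 with the same symbol.

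The libraries came from the rostral neocortex at E15.5 (embryonic day). The i4F-Nes group (2 libraries) carried Nestin-Cre;i4F;ROSA-STOP-rtTA, in which doxycycline switches on 4 reprogramming factors (Pou5f1, Sox2, Klf4 and Myc) in cells where Nestin-Cre has removed the stop before rtTA, and in their descendants. The CTR group (2 libraries) were littermates with i4F;ROSA-STOP-rtTA and no Cre. Doxycycline was in the drinking water of all pregnant females (0.2 mg/ml) between E10.5 and E14.5, a span of 4 days, and thus reached the controls too. How many embryos went into a library is not given in the sources used here, so p-values measure only the spread between these samples.

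Netrins attract or repel axons through Dcc and the Unc5 receptors. Slits repel through Robo1 and Robo2, while Robo3 is best known for letting commissural axons cross the midline. Class 3 semaphorins are secreted and act on a neuropilin paired with a plexin, and the membrane-bound semaphorins bind plexins directly. Ephrins and Eph receptors signal between touching cells. In the developing cortex these families steer radial migration, the sorting of layers, the path of interneurons and the growth of callosal and subcortical axons, and Flrt proteins serve both as adhesion molecules and as repellent ligands of Unc5 receptors.

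The promoter windows of members with the largest ratios in 1 comparison of cells found in i4F-Nes are shown first, because the results below return to these genes. Robo3, Slit3, Epha6 and Slit1 had the largest ratios of cluster 12, described below, over immature neuron-like cells in both i4F-Nes libraries, and RefSeq windows (GRCm38.p6, 250 bases before to 50 after the start) were used for Robo3 (chr9:37433126-37433425, minus strand), Slit3 (chr11:35121206-35121505, plus strand) and Epha6 (chr16:60605482-60605781, minus strand). Capitals mark the letters matched by any of 4 motifs on either strand: ATGCAAAT (the octamer read by Pou5f1), the Ebf palindrome (TCCC and GGGA with any 2 letters between), CACGTG (the E-box read by Myc) and GGGCGG (the GC box read by Sp and Klf factors).
Robo3: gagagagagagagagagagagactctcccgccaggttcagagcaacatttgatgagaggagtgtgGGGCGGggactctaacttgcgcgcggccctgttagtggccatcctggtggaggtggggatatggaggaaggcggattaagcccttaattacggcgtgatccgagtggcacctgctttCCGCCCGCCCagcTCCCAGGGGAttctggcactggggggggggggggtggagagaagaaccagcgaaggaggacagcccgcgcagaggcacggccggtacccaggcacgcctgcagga
Slit3: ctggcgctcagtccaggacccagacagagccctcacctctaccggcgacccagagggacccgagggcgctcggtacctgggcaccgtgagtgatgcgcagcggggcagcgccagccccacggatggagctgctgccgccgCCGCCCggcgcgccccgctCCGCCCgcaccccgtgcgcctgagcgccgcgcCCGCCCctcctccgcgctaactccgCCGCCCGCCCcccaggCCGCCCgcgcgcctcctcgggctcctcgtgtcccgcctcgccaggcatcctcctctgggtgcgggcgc
Epha6: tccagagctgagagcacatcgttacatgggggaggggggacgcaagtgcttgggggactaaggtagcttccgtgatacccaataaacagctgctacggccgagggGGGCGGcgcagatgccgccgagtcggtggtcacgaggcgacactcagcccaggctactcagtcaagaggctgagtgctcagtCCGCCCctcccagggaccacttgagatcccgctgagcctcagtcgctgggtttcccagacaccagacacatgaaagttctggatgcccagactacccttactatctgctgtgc
The Robo3 window held 1 match to the Ebf palindrome, and the Slit3 and Epha6 windows held none. That motif was found in 0.904% of the 32851 windows of all genes and in 3 of the 79 windows of members. GGGCGG matched 3 times in Robo3, 6 times in Slit3 and 2 times in Epha6, with neighbouring matches overlapping in Robo3 and Slit3, and was found in 35.7% of all windows and in 68.4% of the windows of members. Member windows had a median GC content of 64.0% against 52.7% over all windows. ATGCAAAT and CACGTG matched in none of the 3 printed windows. These matches describe letters and not binding.

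A total of 26641 cells were kept, 6046 to 7498 per library, with a median of 11320 to 15162 UMIs (unique molecular identifiers, 1 per captured transcript) per cell. Any pair of libraries shared 8 to 19 cell barcodes. Although the labels call the cells cortical neurons, the 29 clusters also held progenitor, glial, immune and vascular cells. Clusters were named from marker lists, with the 74 members left out of the genes used to cluster, and 10 classes were named, 7 of them with at least 20 cells in every library. Clusters 11 and 12 came almost wholly from i4F-Nes: cluster 11 had 474 and 488 cells in the 2 i4F-Nes libraries and 0 in CTR, and cluster 12 had 355 and 477 against 2. Cluster 18 was 19 cells of CTR replicate 1 led by haemoglobin genes. In i4F-Nes replicate 2 stood 371 of the 468 cells of cluster 6 and 837 of the 1416 cells of cluster 20, which had low UMI counts, and these clusters were left unnamed. Clusters 2, 4 and 8, with 2126, 1335 and 488 cells, stayed unnamed too, and their cells belong to no class. In clusters 2 and 8 no marker list stood out, and in cluster 4 markers of another class led.

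Of the induced factors, Pou5f1 had 30.1 and 10.8 CPM (counts scaled to a common library total) in the i4F-Nes libraries and 1.88 and 1.28 CPM in CTR. The groups did not overlap, and the log2 fold change was 3.59 ± 0.55 (SE, n = 2 per group; adjusted p = 0.0503, edgeR). Sox2 (log2 fold change 0.06), Klf4 (-0.31) and Myc (-0.36) overlapped between the groups. Whether transcripts of the transgene were counted under these genes is not given in the sources used here.

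Where the members are expressed was described first, as CPM of the UMIs summed over the cells of a class in each library. No class was tested against another, since the classes were found in the same cells. In all, 48 members reached 20 CPM in every library of at least 1 of the 7 larger classes, 9 more did so only in cluster 11, cluster 12 or the small Cajal-Retzius-, endothelial- or mural-like classes, and 17 did so in none of these. Immature neuron-like and upper-layer neuron-like cells each held 33 members at this level, intermediate progenitor-like cells 29, interneuron-like cells 26, deep-layer neuron-like cells 25, radial glia-like cells 19 and microglia or macrophage-like cells 6. In what follows, the highest and the next class are those of the 7 larger classes unless a small class is named. Numbered clusters are left out of that ranking. Levels of different genes are not compared here, since span and 3′ capture differ between genes.

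**Figure D1:**
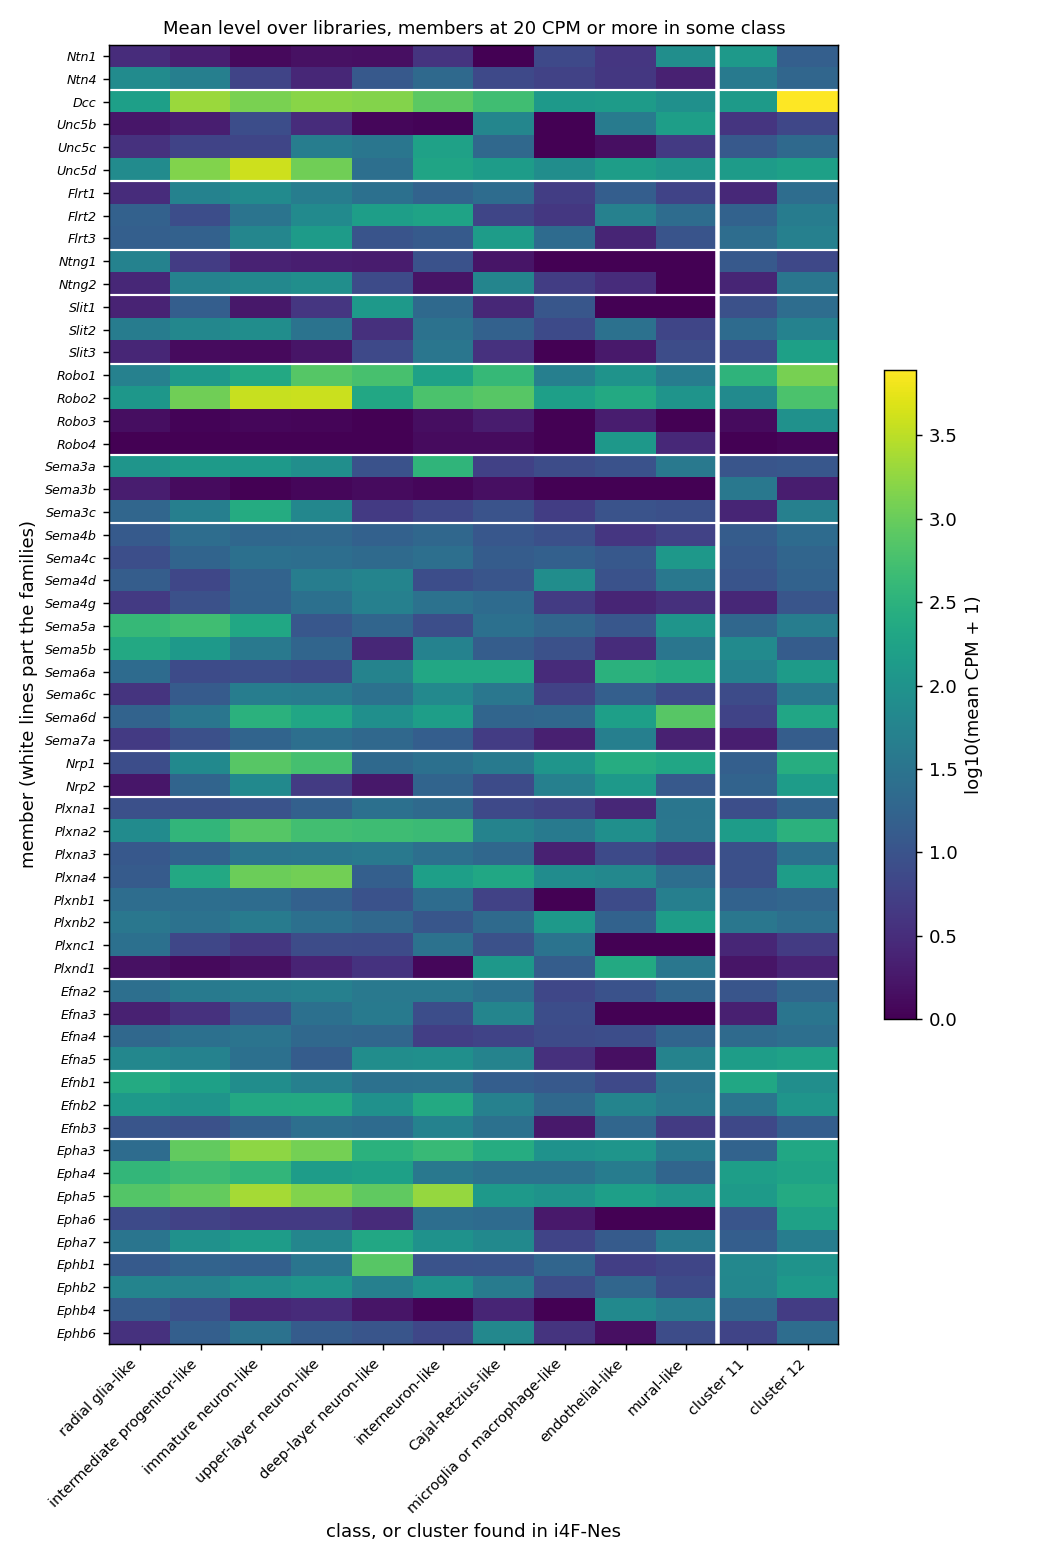
Mean level over libraries, as log10(mean CPM + 1), of the 57 members that reached 20 CPM in some class or in cluster 11 or 12. Rows are members grouped by family, columns are classes, and the 2 columns to the right of the thick line are clusters 11 and 12; Robo3 stands out in the column of cluster 12 and Sema3b in that of cluster 11.

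Among netrin receptors, Unc5d, which is known to delay the radial entry of multipolar neurons, was highest in immature neuron-like cells. Its level there was 4504 and 3999 CPM in i4F-Nes and 3621 and 3938 CPM in CTR, a mean of 4015 ± 365 (SD, n = 4). It was 1431 ± 163 CPM in intermediate progenitor-like cells, 1122 ± 280 in upper-layer neuron-like cells and 25.7 ± 9.79 in deep-layer neuron-like cells. All 4 libraries of the immature class lay above every library of the other classes. Dcc, the attractive netrin receptor, was highest in intermediate progenitor-like cells in all 4 libraries, at 2063 ± 431 CPM. It was also spread over all neuronal classes, with a mean of 1580 CPM in upper-layer neuron-like and 823 ± 151 CPM in interneuron-like cells. Unc5c, a repulsive netrin receptor, was highest in interneuron-like cells at 168 ± 51.0 CPM, with 127 and 160 CPM in i4F-Nes and 242 and 145 CPM in CTR. Unc5b, known from blood vessels, stood at 149 ± 15.2 CPM in mural-like cells (3 libraries) and at 61.4 ± 6.26 CPM in Cajal-Retzius-like cells. Of the ligands, Ntn4 was at 74.1 ± 8.65 CPM in radial glia-like and 46.2 ± 3.91 CPM in intermediate progenitor-like cells. Ntn1 stayed below 20 CPM in every library of the 7 larger classes. In the small mural-like class it had 182 CPM in i4F-Nes replicate 2 and 22.7 and 41.4 CPM in CTR.

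Slit1, a ligand of Robo receptors, was highest in deep-layer neuron-like cells, with 122 and 116 CPM in i4F-Nes and 148 and 103 CPM in CTR, while the next class, interneuron-like cells, had 20.4 ± 3.77 CPM. Slit2 had its highest mean in immature neuron-like cells, 79.1 ± 10.3 CPM, next to 62.2 ± 6.33 CPM in intermediate progenitor-like cells. Robo2 was high in upper-layer neuron-like (3815 ± 562 CPM) and immature neuron-like cells (3680 ± 469 CPM), which did not differ beyond their spread, and was at 215 ± 119 CPM in deep-layer neuron-like cells. Robo1 was high in both neuronal layers, at 749 ± 153 CPM in upper-layer and 572 ± 184 CPM in deep-layer neuron-like cells. Robo4, the endothelial member, was at 119 ± 26.1 CPM in endothelial-like cells, of which i4F-Nes replicate 1 held only 2. Robo3 was under 1 CPM on average in each of the 7 larger classes.

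Sema3c, a secreted semaphorin, had 253 and 324 CPM in i4F-Nes and 169 and 242 CPM in CTR immature neuron-like cells. Nrp1, the neuropilin that binds Sema3a, had 768 ± 71.1 CPM in immature neuron-like and 565 ± 95.7 CPM in upper-layer neuron-like cells against 20.4 ± 4.85 CPM in deep-layer neuron-like cells. Plxna4, a plexin partner of neuropilins, stood at 1147 ± 136 and 1059 ± 134 CPM in upper-layer and immature neuron-like cells, which overlapped, and at 14.0 ± 8.48 CPM in the deep-layer class. Sema3a was highest in interneuron-like cells, but 1 library set that mean: i4F-Nes replicate 2 had 704 CPM and the other libraries 207 to 269 CPM. Sema3e peaked in intermediate progenitor-like cells at 22.5 ± 3.78 CPM.

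The membrane-bound Sema5a and Sema5b were highest in progenitors. Sema5a reached 496 ± 49.2 CPM in intermediate progenitor-like and 410 ± 79.0 CPM in radial glia-like cells, and 10.3 ± 1.70 CPM in upper-layer neuron-like cells. Sema5b was highest in radial glia-like cells at 226 ± 40.8 CPM. Sema6a, a ligand and receptor in migration, was at 216 ± 63.6 CPM in interneuron-like cells and 54.7 ± 6.97 CPM in deep-layer neuron-like cells. Plxnb2, a receptor of class 4 semaphorins, was at 125 ± 47.5 CPM in microglia or macrophage-like cells, the highest of the 7 larger classes in all 4 libraries. The small mural-like class had a higher mean, 148 ± 35.0 CPM (3 libraries). Plxnd1 was at 234 ± 151 CPM in endothelial-like and 120 ± 19.4 CPM in Cajal-Retzius-like cells.

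Ephb1, a receptor of ephrin-B ligands, was at 727 and 1018 CPM in i4F-Nes and 680 and 663 CPM in CTR deep-layer neuron-like cells, and at 31.2 ± 5.88 CPM in the next class, upper-layer neuron-like cells. Epha7 was also highest in deep-layer neuron-like cells, 213 ± 58.4 CPM, but immature neuron-like cells at 139 ± 10.3 CPM overlapped with it in range. Epha3 was highest in immature neuron-like cells at 1712 ± 137 CPM. Epha4 was highest in progenitors, with 532 and 412 CPM in i4F-Nes and 477 and 456 CPM in CTR intermediate progenitor-like cells, and a mean of 385 ± 61.5 CPM in radial glia-like cells. The ephrin Efnb1 was highest in radial glia-like cells, with 263 and 244 CPM in i4F-Nes and 238 and 213 CPM in CTR. Its relative Efnb2 stood nearly level between upper-layer neuron-like (233 ± 21.7 CPM), interneuron-like (232 ± 28.8 CPM) and immature neuron-like cells (226 ± 23.1 CPM).

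Flrt1 was highest in immature neuron-like cells (73.1 ± 14.7 CPM), Flrt2 in interneuron-like (179 ± 47.9 CPM) and deep-layer neuron-like cells (153 ± 37.0 CPM), and Flrt3 in upper-layer neuron-like cells (137 ± 46.7 CPM). In the small Cajal-Retzius-like class Flrt3 was at 142 ± 20.3 CPM. Ntng1, which tethers to the axon membrane, was at 52.0 ± 19.8 CPM in radial glia-like cells and at 8.52 ± 7.92 CPM in the next class. Ntng2 was at 84.1 ± 22.6 CPM in upper-layer neuron-like cells and 1.74 ± 0.28 CPM in radial glia-like cells.

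Transcripts of these neuronal receptors were also counted in microglia or macrophage-like cells. In the CTR libraries that class had 20.9 and 16.3 CPM of Robo2, 26.1 and 52.1 CPM of Dcc and 15.7 and 6.52 CPM of Unc5d. Radial glia-like cells of CTR had 78.1 and 86.7 CPM of Robo2, 131 and 144 CPM of Dcc and 68.1 and 85.4 CPM of Unc5d. The microglia or macrophage-like levels in i4F-Nes were higher and are given with that comparison.

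The groups were compared first over all kept cells, where more cells of a type and more RNA per cell cannot be told apart. Of the 73 members tested, 5 rose in i4F-Nes and none fell: Ntn1, Sema3b, Robo3, Slit3 and Plxnb3. Across all genes 2.18% of 18556 were called in edgeR's quasi-likelihood test, all of them higher. The median log2 fold change was -0.08 over the members and -0.02 over all genes tested. DESeq2 called 11 members, 10 higher and 1 lower, and 5.82% of the 20230 genes to which it gave an adjusted p.

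Ntn1 (chr11:68209364-68400823, minus strand), a secreted netrin, had 25.5 and 14.8 CPM in i4F-Nes and 0.703 and 0.575 CPM in CTR. Its log2 fold change was 4.88 ± 0.35 (SE, n = 2 per group; edgeR adjusted p = 0.0105). Sema3b (chr9:107597674-107609229, minus strand), a secreted class 3 semaphorin, had 7.12 and 4.31 CPM against 0.207 and 0.183 CPM, a log2 fold change of 4.77 ± 0.38 (edgeR adjusted p = 0.0121). Both i4F-Nes libraries were far above both CTR libraries for these ligands, and replicate 1 was the higher of the pair. Robo3 (chr9:37415669-37433246, minus strand) had 4.76 and 10.6 CPM in i4F-Nes and 0.0413 and 0.0244 CPM in CTR. The CTR libraries held only 6 Robo3 UMIs together and the i4F-Nes libraries 1439, a ratio per UMI of 207 (95% exact counting interval 94.9 to 565), with an edgeR adjusted p = 0.0138. Here replicate 2 was the higher i4F-Nes library. Slit3 (chr11:35121224-35708507, plus strand), a Robo ligand, had 13.8 and 16.7 CPM against 2.29 and 1.23 CPM, a log2 fold change of 3.02 ± 0.35 (edgeR adjusted p = 0.0261). Plxnb3 (chrX:73757090-73772514, plus strand), a plexin-B receptor, rested on 102 UMIs in i4F-Nes and 3 in CTR, a ratio of 29.3 (95% interval 9.76 to 145; edgeR adjusted p = 0.0325). Its level was at most 0.560 CPM in any library.

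Others came near the threshold without passing it. Flrt3 had 43.2 and 44.4 CPM in i4F-Nes and 81.3 and 66.1 CPM in CTR, with a log2 fold change of -0.84 ± 0.14 (edgeR adjusted p = 0.0561), and the groups did not overlap. Sema6a had 37.8 and 37.0 CPM against 22.5 and 21.1 CPM (log2 0.69, adjusted p = 0.0735, edgeR). Epha6 had 14.1 and 25.2 CPM against 2.52 and 4.99 CPM (log2 2.30, adjusted p = 0.0904, edgeR). Ntn5 had 61 UMIs against 1 (adjusted p = 0.0578, edgeR). Under the alternative settings, some of which leave 1 library in a group, Flrt3 passed in 6 of 11 (log2 -0.9594 to -0.6935). Epha6 passed in 4 of 11 (log2 0.7713 to 2.892) and Ntn5 in 6 of 10 (log2 4.306 to 7.833). The log2 fold change was negative for 45 of the 73 members and for 9955 of the 18556 genes. By family it was positive for 3 of 4 Robos, 3 of 4 netrins, 3 of 5 EphB receptors, 1 of 2 neuropilins, 1 of 2 netrin-G ligands, 3 of 7 class 3 semaphorins and 2 of 5 ephrin-A ligands. It was positive for 3 of 8 EphA receptors, 1 of 3 Slits, 1 of 3 ephrin-B ligands, 3 of 9 plexins, 3 of 13 other semaphorins, 1 of 5 Dcc and Unc5 receptors and 0 of 3 Flrt proteins. At an unadjusted p under 0.05, 16 members (21.9%) and 12.5% of all genes were counted.

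**Figure D2:**
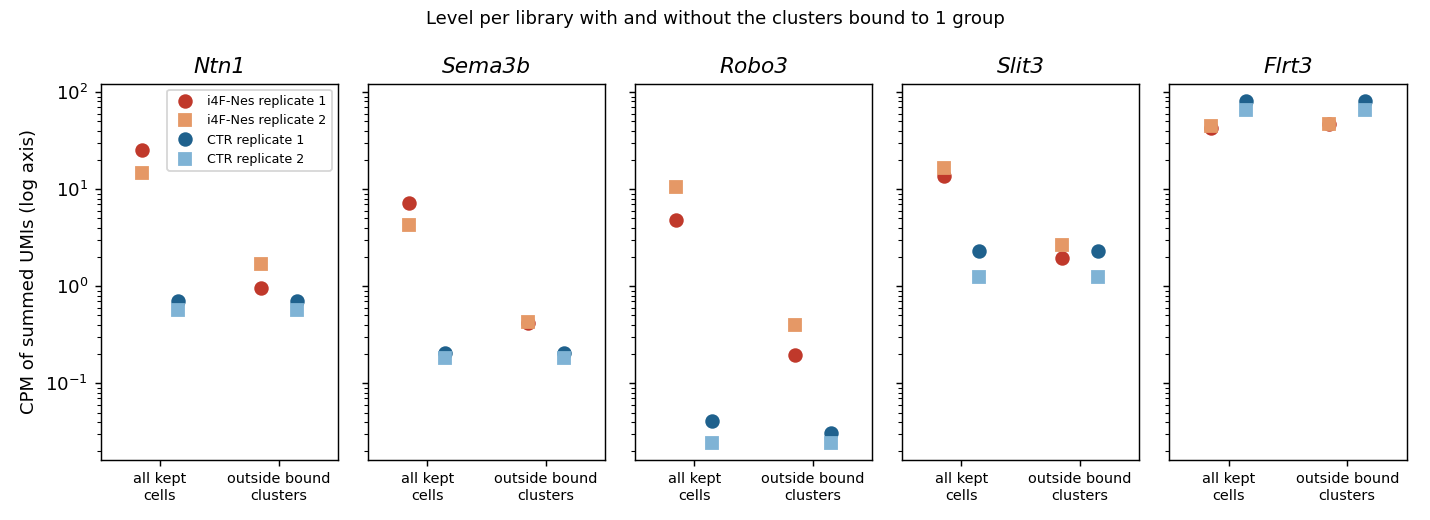
CPM of summed UMIs on a log axis for 5 members in each library, over all kept cells and over cells outside the clusters bound to 1 group. The i4F-Nes libraries stand above CTR for Ntn1, Sema3b, Robo3 and Slit3 over all cells, and Slit3 overlaps between the groups once those clusters are left out.

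Most of the transcripts behind these 5 calls came from clusters 11 and 12. Cluster 11 held 6.32% and 7.62% of the cells and 14.2% and 16.6% of the UMIs of the 2 i4F-Nes libraries, but 91.6% (95% exact binomial interval 90.6 to 92.6) and 87.1% (85.0 to 89.0) of their Ntn1 UMIs. It also held 93.4% and 92.6% of the Sema3b UMIs. Cluster 12 held 6.43% and 9.22% of the UMIs, but 95.8% (93.8 to 97.2) and 96.9% (95.4 to 97.9) of Robo3, 80.9% and 81.5% of Slit3 and 76.4% and 56.7% of Plxnb3. Intervals cover counting error only. Without clusters 11, 12 and 18, the clusters bound to 1 group, edgeR called 0 of 71 members and 0.0% of 18078 genes, with 4 members and 1.86% of genes at an unadjusted p under 0.05, and DESeq2 called 0 members and 0.101% of genes. Over all cells without cluster 11 no member passed in edgeR, and without cluster 12 there were 2, Ntn1 and Sema3b (settings added after the values were seen, with no share over all genes given). Robo3 then still had a log2 fold change of 7.97 without cluster 11 (adjusted p = 0.0943, edgeR) and of 2.98 without cluster 12 (adjusted p = 0.102, edgeR).

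Outside those clusters Ntn1 had 0.970 and 1.69 CPM in i4F-Nes against 0.706 and 0.575 CPM in CTR. Robo3 had 0.196 and 0.396 CPM, 20 and 23 UMIs, against 0.0311 and 0.0244 CPM, 3 and 2 UMIs. Slit3 overlapped, with 1.94 and 2.63 CPM against 2.30 and 1.23 CPM. Flrt3 kept a log2 fold change of -0.69 ± 0.12, with 46.8 and 47.4 CPM in i4F-Nes and 81.4 and 66.1 CPM in CTR.

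Cluster 11 was led by Crip1, S100a11, Hopx and Lgals1 and had a median of 30076.5 UMIs per cell, above that of every library. Of the marker lists, that of oligodendrocyte precursors scored highest in it, with 3 markers detected. Its cells summed to 4098 and 5544 CPM over the 17 radial glia markers, where the radial glia-like class had, in these libraries, 18261 and 19021 CPM. That class was set beside cluster 11 as a reference, and descent from it was not tested. Ntn1 stood at 165 and 78.0 CPM in cluster 11 and at 2.95 and 3.64 CPM in radial glia-like cells, a ratio of 55.8 and 21.5. For Sema3b the levels were 46.8 and 24.1 CPM against 1.01 and 2.00 CPM. Among receptors, Robo1 (405 and 270 CPM against 45.7 and 71.3) and Ephb1 (63.4 and 64.3 CPM against 11.3 and 21.3) were higher too. Other members were lower in cluster 11 than in radial glia-like cells of the same i4F-Nes libraries. Sema5a was at 15.6 and 22.4 CPM against 512 and 427 CPM. Sema3a was at 6.34 and 13.3 CPM against 146 and 106 CPM, and Epha5 at 72.0 and 194 CPM against 792 and 760 CPM. Sema5a, Sema3a and Epha5 each had a higher mean in a class other than radial glia-like cells. Efnb1 was alike in both, at 218 and 204 CPM where radial glia-like cells had 263 and 244 CPM. Of 40 members at 10 CPM or more in both libraries of either group of cells, 5 were at least 2-fold higher in both libraries (7.35% of 9708 genes were) and 14 at least 2-fold lower (7.58% of genes). No test was made of these levels, since the cluster was defined in the same cells. In i4F-Nes replicate 2, mural-like cells had 182 CPM of Ntn1 (34 UMIs), above the 78.0 CPM of cluster 11.

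Cluster 12 was led by Krt8, Crabp2, Ebf2, Ebf1 and Ebf3, and its Cajal-Retzius marker sum was 1751 and 2023 CPM, including those Ebf genes. Of the marker lists, the Cajal-Retzius list scored highest in cluster 12. Its guidance profile was set beside that of immature neuron-like cells, the youngest neuronal class, and not beside that of the small Cajal-Retzius-like class. Dcc, Efna5, Robo1 and Sema6a, higher in cluster 12 below, also reached 20 CPM in every library of the Cajal-Retzius-like class. Robo3, Slit3, Epha6 and Slit1 did not. Dcc reached 9089 and 6596 CPM against 1487 and 1070 CPM, and cluster 12 alone held 29.6% and 40.5% of all Dcc UMIs of the i4F-Nes libraries. Robo3 was at 70.9 and 111 CPM against 0.200 and 0.363 CPM, the latter resting on 3 and 2 UMIs. Slit3 was at 174 and 148 CPM against 0.200 and 0.545 CPM. Slit2, another Slit, was at 52.5 and 53.6 CPM against 70.6 and 79.1 CPM. Robo1 was at 1080 and 1392 CPM against 212 and 311 CPM, Epha6 at 154 and 184 CPM against 2.07 and 6.72 CPM, Efna5 at 150 and 183 CPM against 28.3 and 27.0 CPM, and Sema6a at 176 and 101 CPM against 7.67 and 10.7 CPM. Slit1 was at 25.5 and 22.4 CPM against 0.933 and 1.09 CPM. Immature neuron-like cells were its lowest class, and deep-layer neuron-like cells, its highest, had 122 ± 18.9 CPM, above cluster 12.

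Several receptors with high levels in immature neuron-like cells were lower in cluster 12. Unc5d was at 163 and 167 CPM against 4504 and 3999 CPM, Robo2 at 693 and 563 CPM against 4105 and 3887 CPM, Plxna4 at 126 and 166 CPM against 1239 and 1013 CPM, and Epha3 at 175 and 240 CPM against 1915 and 1671 CPM. Both libraries gave the same order for each of these receptors. Nrp2, whose highest class was also the immature one with 91.8 and 55.7 CPM, had 121 and 164 CPM in cluster 12, and Sema6d and Ephb6 were not 2-fold apart in both libraries. Of 49 members at 10 CPM or more in either group of cells, 12 were at least 2-fold higher in both libraries (9.07% of 9220 genes were) and 15 at least 2-fold lower (3.37% of genes).

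**Figure D3:**
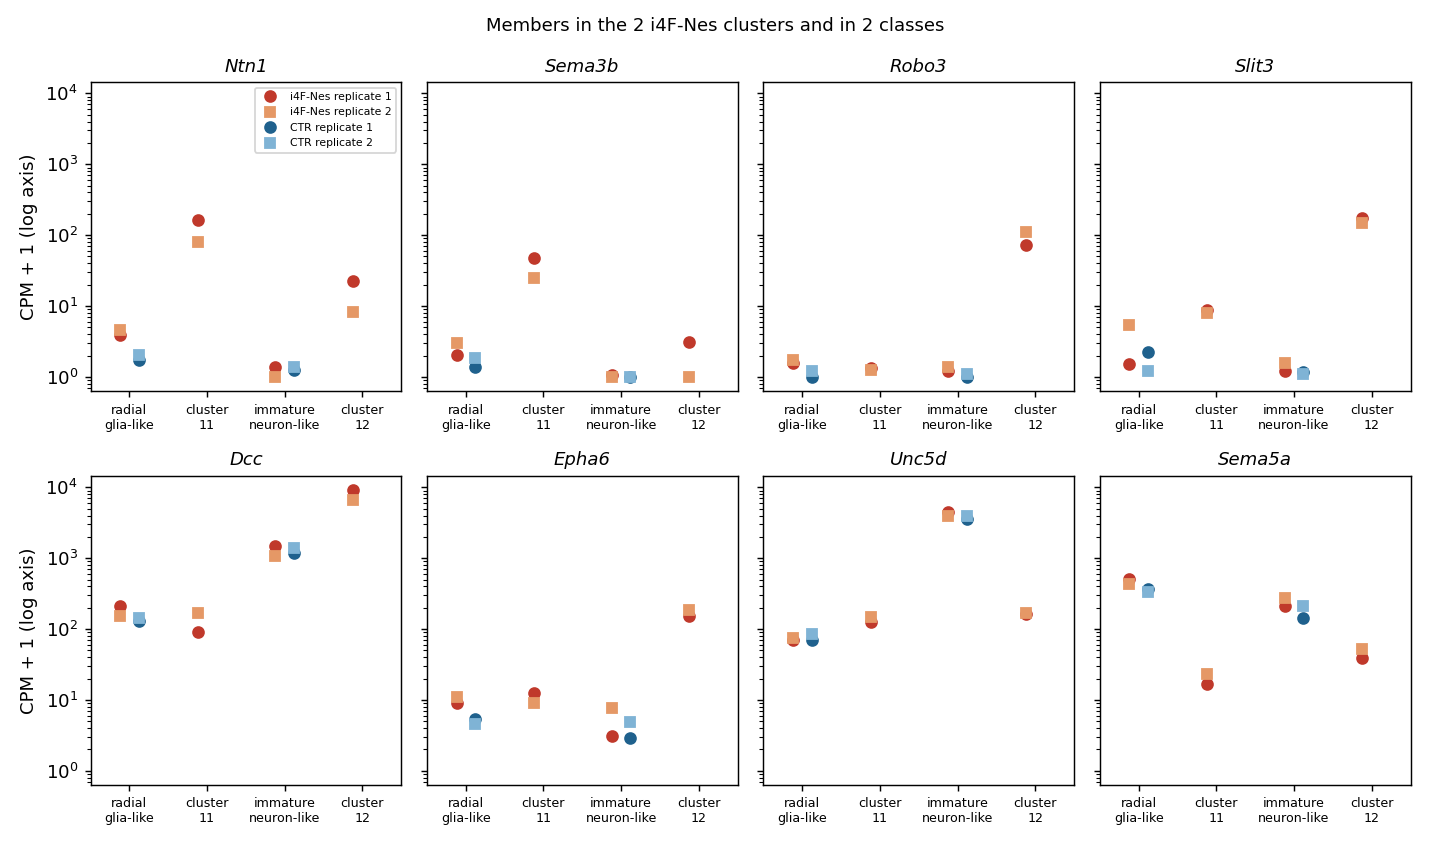
CPM + 1 on a log axis for 8 members in radial glia-like cells, cluster 11, immature neuron-like cells and cluster 12, with 1 point per library and i4F-Nes libraries only in the clusters. Ntn1 and Sema3b peak in cluster 11, Robo3, Slit3, Dcc and Epha6 in cluster 12, Unc5d is lower in cluster 12 than in immature neuron-like cells, and Sema5a is lower in cluster 11 than in radial glia-like cells.

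Within the classes that both groups shared, no member passed in 6 of the 7. In edgeR, 0 of 58 members were called in radial glia-like, 0 of 61 in intermediate progenitor-like, 0 of 60 in immature neuron-like, 0 of 63 in upper-layer neuron-like, 0 of 56 in deep-layer neuron-like and 0 of 48 in interneuron-like cells. Over all genes 0.0% were called in the first 5 of these and 0.0105% in interneuron-like cells, and DESeq2 called 0 members in each of the 6. Its shares of all genes with an adjusted p were 0.0834%, 0.052%, 0.0287%, 0.0%, 0.0138% and 0.0% in that order. The counts at an unadjusted p under 0.05 were 10, 4, 2, 4, 2 and 2 members in that order. Among all genes the shares at that level were 5.03%, 2.7%, 2.2%, 0.882%, 1.12% and 3.4%. Counts were also simulated with the depth of upper-layer neuron-like cells and 1 fixed spread for every gene, not estimated from these cells. On them the same test recovered 45 of 100 genes changed 2-fold and 97 of 100 changed 4-fold. Smaller folds, other spreads and the other classes were not simulated.

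Radial glia-like cells had the most members at an unadjusted p under 0.05, 10 of 58 (17.2%). Their share over all genes, 5.03%, was also the highest of these 6 classes. Of the 10 members, 8 were higher in i4F-Nes, and the share of genes by direction is not given here. Ntn1 had 2.95 and 3.64 CPM against 0.729 and 1.04 CPM (log2 1.91 ± 0.50, adjusted p = 0.834, edgeR), the same gene that was high in cluster 11. Sema3c had 22.1 and 27.6 CPM against 8.38 and 15.8 CPM (log2 1.06 ± 0.31, adjusted p = 0.871, edgeR), and Ephb1 had 11.3 and 21.3 CPM against 7.84 and 5.62 CPM. The deep-layer marker list moved in the same direction in these cells, at 1898 and 1705 CPM against 1498 and 1575 CPM, with 5 of its 13 markers higher without overlap, and its part in these values was not tested. Sema3c passed under 4 of 10 alternative settings (log2 0.5828 to 1.555) and Ephb1 under 2 of 10 (log2 0.5695 to 1.635). Some of these settings leave 1 library in a group, and the share of all genes passing under them is not given here. Both passed with no filter on low counts (adjusted p = 0.0136 and 0.0156, edgeR). The median log2 fold change in radial glia-like cells was 0.25 over the members and 0.00 over all genes tested.

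In interneuron-like cells Slit3 had 45.2 and 49.1 CPM in i4F-Nes and 20.7 and 15.2 CPM in CTR (log2 1.42 ± 0.32, adjusted p = 0.186, edgeR). The groups did not overlap, but i4F-Nes rested on 135 and 107 cells. Slit3 passed under 3 of 10 alternative settings (log2 0.5031 to 1.582), among them no filter (adjusted p = 0.0344, edgeR). In intermediate progenitor-like cells Efna5 had 60.1 and 76.3 CPM against 32.9 and 43.3 CPM (log2 0.81 ± 0.20, adjusted p = 1.00, edgeR). It passed under 3 of 10 alternative settings (log2 0.593 to 1.046), among them no filter (adjusted p = 0.00297, edgeR). Slit2 in upper-layer neuron-like cells had 25.2 and 21.4 CPM against 35.0 and 35.7 CPM, and Epha3 in deep-layer neuron-like cells 329 and 407 CPM against 225 and 275 CPM. Neither passed.

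Flrt3, an adhesion molecule and Unc5 ligand of migrating cortical neurons, was lower in i4F-Nes without overlap in 4 of the 6 neural classes. In upper-layer neuron-like cells it had 113 and 94.7 CPM against 201 and 139 CPM (log2 -0.72 ± 0.19). In immature neuron-like cells it had 46.9 and 46.5 CPM against 82.5 and 61.4 CPM (log2 -0.65 ± 0.16). Radial glia-like (log2 -0.76 ± 0.25) and intermediate progenitor-like cells (-0.62 ± 0.22) gave a like value at a lower level, while deep-layer neuron-like (0.19 ± 0.37) and interneuron-like cells (0.07 ± 0.49) overlapped. CTR replicate 1 was the highest library in all 4 of the first. None passed after adjustment over all genes in edgeR. In immature neuron-like cells Flrt3 passed under 3 of 9 alternative settings (log2 -0.8047 to -0.4518), among them no filter (adjusted p = 0.0248, edgeR). The share of all genes that were lower without overlap in 4 classes is not given here. On another measure, Flrt3 had an unadjusted p under 0.05 in 4 classes. Of the 9105 genes tested in all 6 classes, 12 (0.132%) had this in at least 4. These classes come from the same libraries, so they are not separate tests. Flrt3 was singled out after its values were seen.

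**Figure D4:**
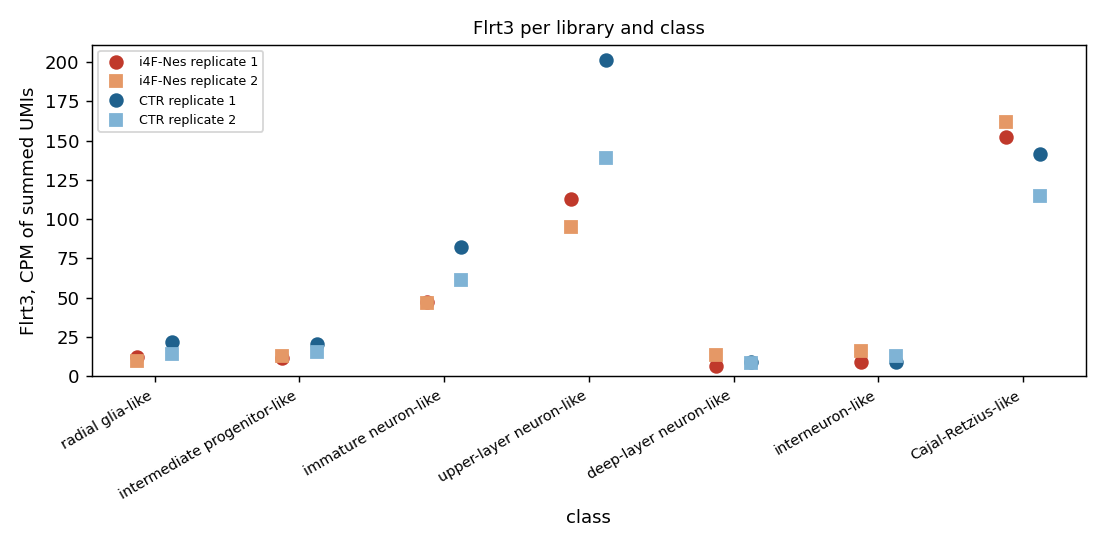
CPM of Flrt3 in each library for 7 classes. The i4F-Nes libraries lie below the CTR libraries in radial glia-like, intermediate progenitor-like, immature neuron-like and upper-layer neuron-like cells, and the groups overlap in deep-layer neuron-like and interneuron-like cells.

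Microglia or macrophage-like cells were the class in which members passed. With 29 to 47 cells per library, 13 members passed the filter on low counts, which a gene can pass through 1 group alone, so they do not stand for the 74. Of them 5 rose in i4F-Nes (2.11% of 4367 genes were called, 1.33% as higher): Epha3 with 149 and 208 CPM against 10.4 and 9.78 CPM, Robo2 with 182 and 407 CPM against 20.9 and 16.3 CPM, Unc5d with 192 and 102 CPM against 15.7 and 6.52 CPM, Robo1 with 109 and 63.0 CPM against 5.22 and 13.0 CPM, and Dcc with 235 and 170 CPM against 26.1 and 52.1 CPM. The edgeR adjusted p was 0.00365 for Epha3 and Robo2, 0.00788 for Unc5d, 0.0269 for Robo1 and 0.0295 for Dcc. The CTR values rest on 1 to 16 UMIs per library. The call of Robo1 was lost when i4F-Nes replicate 1 (edgeR adjusted p = 0.536) or CTR replicate 1 (0.0507) was left out, and that of Dcc without CTR replicate 1 (0.109). All 5 are receptors of neurons. In the same cells the upper-layer neuron list summed to 622 and 882 CPM in i4F-Nes against 250 and 463 CPM in CTR, with 11 of its 14 markers higher without overlap and 1 at 0 in every library. The immature neuron list summed to 255 and 203 CPM against 52.2 and 52.1 CPM, and the microglia list was lower, at 17036 and 13744 CPM against 24317 and 20230 CPM. The part of these markers in the result was not tested. With no removal of doublets 0 of the 5 passed, and DESeq2 called 3 members and 1.13% of genes.

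**Figure D5:**
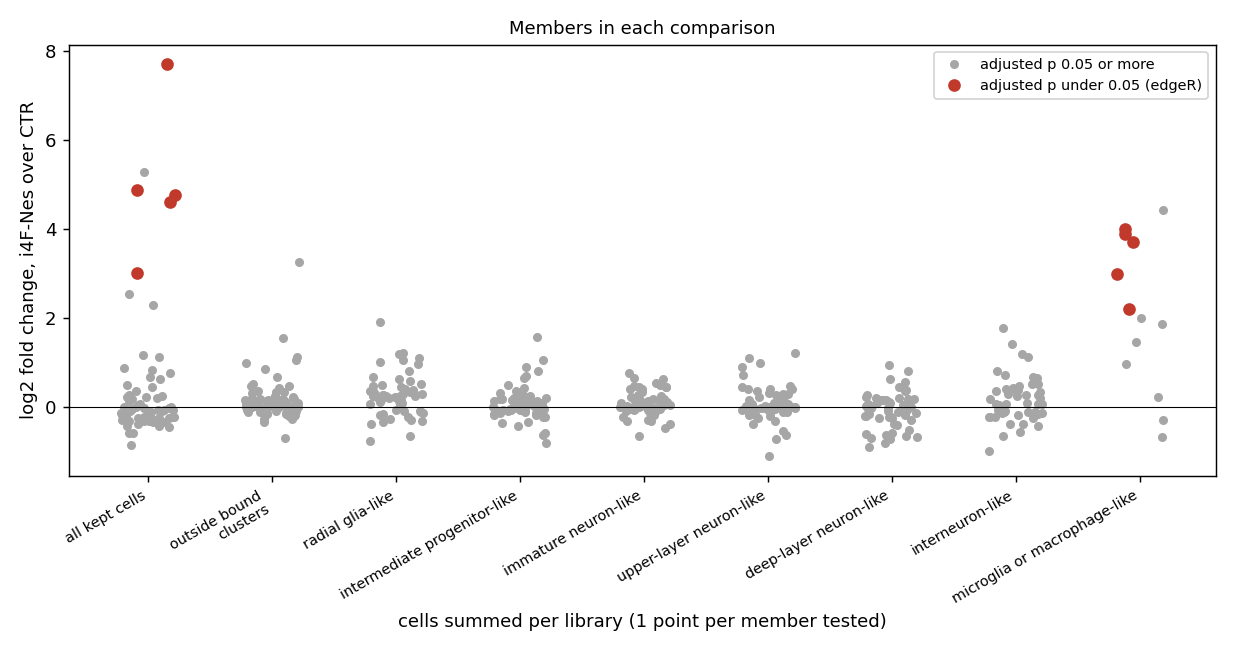
Log2 fold change of i4F-Nes over CTR for each member tested, 1 column of points per comparison. Points that passed in edgeR (red) appear over all kept cells (5 members) and in microglia or macrophage-like cells (5 members), and in no other column.

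An interaction of class and group asked whether i4F-Nes and CTR differed by another amount in the radial glia-like class than in the upper-layer class. In edgeR 0 of 66 members and 0.0% of 15036 genes passed. At an unadjusted p under 0.05 there were 14 members (21.2%), 13 of them with the higher effect in radial glia-like cells, and 5.61% of genes. The lowest member p belonged to Slit2, whose effect was 0.98 ± 0.18 higher on the log2 scale in radial glia-like than in upper-layer neuron-like cells (adjusted p = 0.481, edgeR). Sema3a followed at 0.64 ± 0.15 (adjusted p = 0.516, edgeR).

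The other genes of the pathway, 85 co-receptors, adhesion partners and intracellular effectors, were fitted in the same models. Over all kept cells 1 of 85 passed in edgeR and DESeq2 called 3. The 1 was Dock1, an exchange factor that activates Rac downstream of netrin receptors, with 40.1 and 42.8 CPM in i4F-Nes against 17.7 and 14.4 CPM in CTR (log2 1.28 ± 0.16, edgeR adjusted p = 0.030). In microglia or macrophage-like cells 1 of 31 tested passed, Srgap2, a GTPase-activating partner of Robo receptors, which fell by 1.95 on the log2 scale (edgeR adjusted p = 0.0316). In the other 6 classes and outside the clusters bound to 1 group, edgeR and DESeq2 called 0 of them, and edgeR counted 1 to 8 at an unadjusted p under 0.05 in these comparisons.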

How the data were processed

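The authors deposited, for each of 4 libraries, a matrix of raw UMI counts per gene and barcode, made with Cell Ranger 7.0.1 per the file headers and on mm10 per the submitters' processing notes. Papain-dissociated cells from 300 µm sections were captured with 10x 3′ v3.1 chemistry, per the labels' protocols. Neither the annotation release nor the counting of intronic reads is given in the sources used here. Groups and replicate numbers came from sample titles.

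Barcodes with at least 1000 UMIs, at least 500 genes and at most 10% mitochondrial UMIs were kept, and the highest Scrublet scores, 0.8% per 1000 barcodes, were removed as doublets. Of 35255 barcodes, 26641 cells remained, with 78346750 to 128584415 UMIs per library. Clusters came from 2000 variable genes without the members, 30 components, 15 neighbours and Leiden resolution 1.0 (scanpy 1.11.5, no integration). They were named from 16 marker lists, needing at least 3 markers in 10% of cells. Clusters with over 98% of cells from 1 group or over 75% from 1 library stayed numbered. So did clusters in which no marker list stood out or markers of another class led. Names were rebuilt here and may differ from the study's own. Counts were summed per library over all cells and per class, and tested with edgeR 4.0.16 (quasi-likelihood, TMM, filterByExpr, Benjamini-Hochberg over all genes tested, threshold 0.05), with DESeq2 1.42.0 as the other tool. Counts tested on simulated data with the depth of all cells and the same fixed spread gave 53 of 100 genes changed 2-fold, 100 of 100 changed 4-fold and 6 false calls. Binomial intervals are exact, at 95%. The interaction fit held the library as a block. Alternatives were RLE scaling, no low-count filter, the replicate number as a block, each library left out, no doublet removal and cells gated one by one on markers.

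Named were members that passed a comparison, members with at least 20 CPM in every library of a class, or in both i4F-Nes libraries of a cluster bound to that group, and at least 4-fold between classes (the few described stand for 55 such members, the choice among them made after their values were seen), and the 4 induced factors. Sema3e and Ntn5 fall outside that rule and were chosen after their values were seen. Members, lists and tests were chosen with earlier results of these data known. Coordinates came from the GENCODE M21 annotation of GRCm38 (mm10). RefSeq promoter windows were found for 63 of the 74 members.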

Additional observations from a re-analysis of the deposited data

How the results depend on the processing

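Of the counts of members called, that over all kept cells (5) moved to 11 with DESeq2, 9 with no filter on low counts and 13 with the replicate number as a block, lay between 6 and 9 with a library left out (9 without CTR replicate 2, 8 without i4F-Nes replicate 1), and was 0 without cluster 11 and 2 without cluster 12. With no filter on low counts 1 member was called in each of deep-layer neuron-like, immature neuron-like and intermediate progenitor-like cells, 2 in interneuron-like and 3 in radial glia-like cells, where edgeR had called 0. With the replicate block the counts were 3 in deep-layer neuron-like, 5 in immature neuron-like and 6 in upper-layer neuron-like cells, and 1 each in intermediate progenitor-like, interneuron-like and radial glia-like cells. The labels do not say that a number pairs samples; same-numbered deviations correlated at 0.33 over all cells and between -0.03 and 0.66 by class, with only 2 pairs. With a library left out, counts lay between 0 and 1 (deep-layer neuron-like), 0 and 2 (immature neuron-like and intermediate progenitor-like), 0 and 3 (interneuron-like) and 0 and 6 (radial glia-like, 6 without i4F-Nes replicate 1); the lone library is then assumed to vary like the other group. Gating cells one by one gave 24 members in interneuron-like cells, where 76 of the gated i4F-Nes cells and 1 of the CTR cells lay in clusters bound to 1 group. Apart from DESeq2, the share of all genes called under each alternative is not given here, so these counts are not a result about the members. In microglia or macrophage-like cells the 5 calls became 3 with DESeq2 and 0 with no doublet removal. Of 451 values of named fold changes under an alternative, 366 kept their direction and side of the threshold, 54 newly passed, 18 no longer passed and 13 turned sign. Under the replicate block 15 newly passed, among them Flrt3 in immature neuron-like (adjusted p = 0.00028, edgeR) and upper-layer neuron-like cells (0.00344) and Sema3c in radial glia-like cells (0.0168), and Dcc in microglia or macrophage-like cells no longer did (0.0574). Beyond these settings the cause of each shift was not tested. No count changed outside the clusters bound to 1 group or in the interaction.

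Some log2 fold changes turned sign, none of them past the threshold. Over all cells Nrp2 (-0.15) and Dcc (-0.27) did so without cluster 12, and Robo1 without CTR replicate 1 (-0.0716, range over left-out libraries to 0.6397). Slit3 outside the bound clusters was -0.0307 without CTR replicate 2 (to 0.8164). Gating turned Sema5a in deep-layer neuron-like cells (0.20) and Sema3a in interneuron-like cells (-0.29). Flrt3 turned negative in deep-layer neuron-like cells without i4F-Nes replicate 2 (-0.45, to 0.70), with no doublet removal (-0.39) and with gating (-0.72), and in interneuron-like cells with no filter (-0.0053), without CTR replicate 1 (-0.13), without i4F-Nes replicate 2 (-0.41, to 0.52) and with no doublet removal (-0.29). Flrt3 over all cells passed under 6 of 11 alternatives (log2 -0.96 to -0.69, adjusted p 0.000149 to 0.316). RLE scaling moved the median of all genes by at most 0.03 on the log2 scale. Low members, such as Plxnb3 and Ntn5, rest on few UMIs.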
